A study of Mus musculus with 8 samples.

Results

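The tumor necrosis factor (TNF) family comprises trimeric ligands, most of them made as membrane proteins, and the receptors that bind them. The genes described here are the protein-coding genes whose symbols begin with Tnfrsf or Tnfsf, together with Tnf, Lta, Ltb, Ltbr, Fas, Fasl, Cd27, Cd40, Cd40lg and Cd70, provided that no value in the table was below 0. This rule gave 40 genes, 16 ligands and 24 receptors, of 39527 genes in the table. A further 3 family symbols were left out because their values were below 0: Tnfsf12 and Tnfsf13, which are protein coding, and the antisense gene Tnfsf13os.

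RNA came from group 2 innate lymphoid cells (ILC2s), antigen-receptor-independent lymphocytes that make type 2 cytokines. The cells had been sorted from visceral fat of the epididymal depot, and the donors were wild-type C57BL/6 males aged 14 weeks. The high-fat diet group (libraries H1 to H4) and the normal diet group (N1 to N4) each had 4 libraries, and the diets had run for 8 weeks from 6 weeks of age. The labels name no gate for the sort and do not say whether a library is an animal or a pool, so p-values here cover only how these libraries scatter, and that scatter may be technical.

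Most receptors of this family signal through TRAF adaptor proteins to NF-kB and JNK, and those with a death domain can also engage caspases. In lymphocytes the receptors without a death domain, such as GITR (Tnfrsf18), OX40 (Tnfrsf4) and CD137 (Tnfrsf9), act as costimulators. ILC2s are known to respond to ligands of GITR, of DR3 (Tnfrsf25) and of TNF receptor 2 (Tnfrsf1b), and to display OX40 ligand (Tnfsf4) to T cells, including in fat tissue.

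Levels are in FPKM (fragments per kilobase of gene after scaling for library size, as deposited). The ILC2 genes Gata3, at 566 to 714 FPKM in high-fat and 835 to 1145 FPKM in normal-diet libraries, and Il1rl1, at 269 to 299 and 297 to 425 FPKM, were abundant throughout. Of the 12 genes in the ILC2 list 3 were called lower on the high-fat diet, Il5 (-2.06), Il2ra (-0.72) and Gata3 (-0.59), and 0 higher (limma, adjusted p = 7.6e-05, 0.0152 and 0.0449). The list summed to 4533 to 5261 FPKM in H1 to H4 and to 5945 to 7222 FPKM in N1 to N4, without overlap, while Il7r (0.31) and Areg (0.33) had differences above 0 that did not pass. Markers of other cells were also present. The T cell list, which holds receptor constant genes that ILC2s are known to transcribe, summed to 1030.0 to 1948 FPKM in H1 to H4 and to 1085 to 1369 FPKM in N1 to N4, and its member Cd3e lay at 7.33 to 15.1 FPKM in the high-fat and 2.49 to 11.6 FPKM in the normal-diet libraries. The mast cell list summed to 1717 to 7835 and 3747 to 7989 FPKM on the high-fat and normal diets, with its lowest value in H2. The B cell list stayed at 5.84 to 9.23 FPKM in high-fat libraries and 5.20 to 7.04 FPKM in normal-diet libraries. In the endothelial list, which summed to 28.0 to 139 FPKM in high-fat libraries and 15.3 to 21.5 FPKM in normal-diet libraries, Fabp4 was higher on the high-fat diet (adjusted p = 0.0270, limma). In bulk RNA of this kind fewer cells of a type and less RNA per cell cannot be told apart, and the part of other cells in the values below was not tested.

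On the high-fat diet the transcripts of several TNF family ligands were higher, while no receptor transcript was called higher. Tnfsf9 (CD137 ligand), Tnfsf4 (OX40 ligand) and Lta (lymphotoxin alpha) rose by 0.86, 0.78 and 0.64 on the log2(FPKM + 1) scale, and Tnfrsf9, the receptor of CD137 ligand, fell by 0.66. A gene was tested when it reached 1 FPKM in at least 4 of 8 libraries, and called when its p-value from limma, adjusted by the Benjamini-Hochberg method over all 11483 tested genes, was under 0.05. Of the 40 members 32 were tested, 3 rose, 1 fell and 28 did not pass. Over all tested genes 2.86% were called, with 0.975% higher and 1.88% lower on the high-fat diet. Quantile normalization of the libraries turned the split over all genes from 112 higher and 216 lower to 226 higher and 204 lower, and the members to 4 higher and 0 lower.

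**Figure D1:**
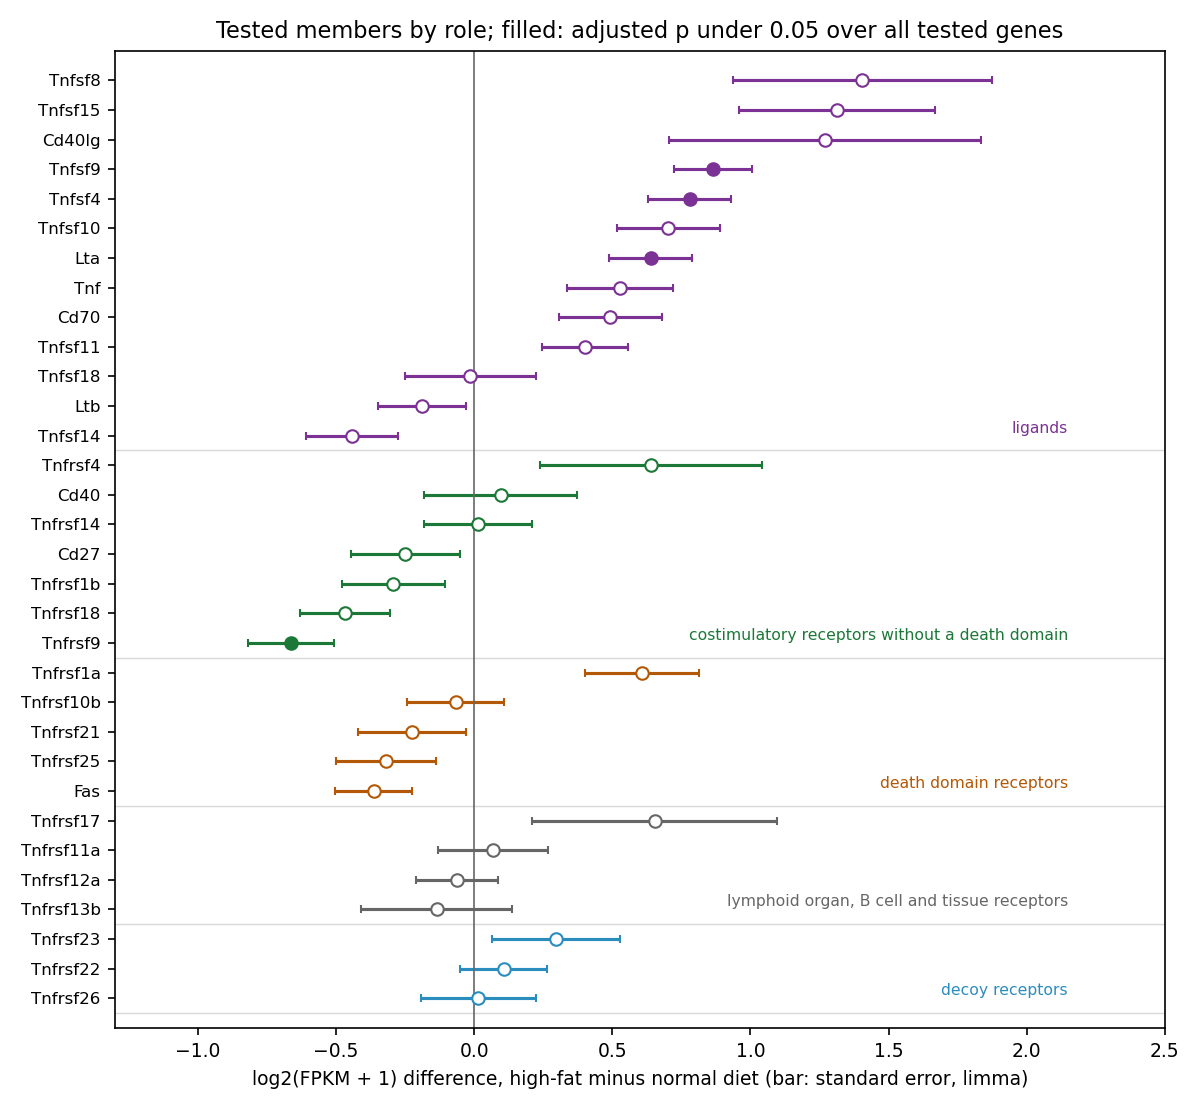
Difference between the diets for the 32 tested members, in log2(FPKM + 1), high-fat minus normal diet, with the standard error of limma as bars (n = 4 libraries per diet). Members are grouped by role, and filled points mark the 4 with an adjusted p under 0.05; 10 of 13 ligands lie above 0.

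The 13 tested ligands had a median difference of 0.64, the 19 tested receptors one of -0.06 and all tested genes one of -0.02. Of the ligands 10 had a difference above 0 and 3 below, and of the receptors 9 above and 10 below. For 5 ligands the diets had no overlap between libraries, all higher on the high-fat diet, where 4.31% of all tested genes were higher without overlap. Among the receptors 1 was higher and 3 were lower without overlap, against 6.76% of all tested genes lower without overlap. At an unadjusted p under 0.05, 10 ligands passed, 9 of them higher on the high-fat diet, where 18.1% of all tested genes passed in either direction and 7.18% were higher at that level. These counts describe the lists and were not tested as lists.

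The family spanned a wide range of levels. By the mean of all 8 libraries the order was Tnfrsf18, Ltb, Tnfsf11, Tnfsf9, Tnfrsf25, Tnfrsf4, Tnfrsf9, Tnfsf8, Tnfrsf1b and Tnfsf4. Tnfrsf18 ranked 102 and Ltb 189 among the 11483 tested genes. Tnfsf11, Tnfsf9 and Tnfrsf25 were neighbours in that order, and within each diet the ranges of Tnfsf11 and Tnfsf9 overlapped. Every high-fat library held more FPKM of Tnfsf9 than of Tnfrsf25, and every normal-diet library held less. At the low end 8 members stayed under the filter, and Fasl, Tnfsf13b, Tnfsfm13, Ltbr, Tnfrsf8, Tnfrsf11b, Tnfrsf13c and Tnfrsf19 reached at most 1.10 FPKM in any library.

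**Figure D2:**
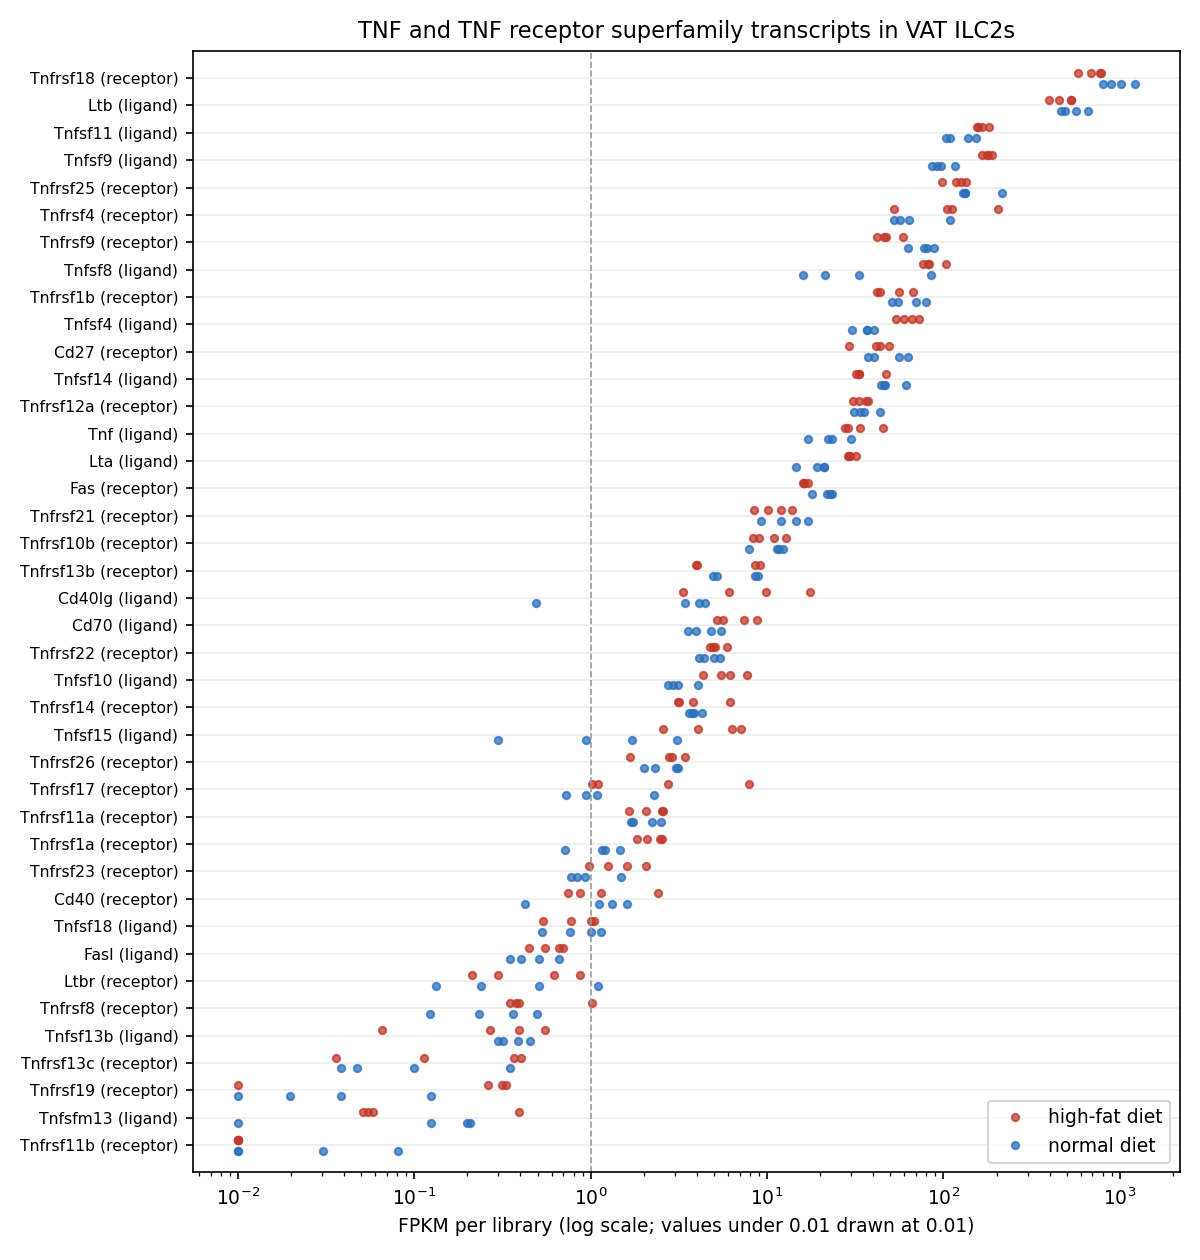
FPKM of each of the 40 members in each of the 8 libraries on a log axis, ordered by the mean of all libraries, with the 4 high-fat libraries in red above the 4 normal-diet libraries in blue. The dashed line marks 1 FPKM; Tnfrsf18 lies highest, at 581 to 781 FPKM in high-fat libraries and 806 to 1218 FPKM in normal-diet libraries.

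Among the ligands, Tnfsf9 (ENSMUSG00000035678, chromosome 17, 57105325 to 57107757 in mm10) had the smallest adjusted p of the family. CD137 ligand is a costimulator for T cells and also signals into the cell that carries it. Its level was 177, 166, 189 and 179.9 FPKM in H1 to H4, against 97.2, 117, 92.3 and 85.6 FPKM in N1 to N4. Every high-fat library stood above every normal-diet library. The means were 178 ± 9.38 and 97.9 ± 13.3 FPKM (SD, n = 4 each) on the high-fat and normal diets, a 1.82-fold ratio. The log2 difference was 0.86 ± 0.14 (limma, standard error, adjusted p = 0.00578). It was called in all 19 other settings tried, between 0.80 and 0.999.

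Tnfsf4 (ENSMUSG00000026700, chromosome 1, 161395409 to 161418410) encodes OX40 ligand, which sustains effector and regulatory T cells. It stood at 72.8, 66.3, 53.5 and 59.5 FPKM in H1 to H4, against 36.8, 40.6, 30.4 and 37.1 FPKM in N1 to N4. The diets did not overlap. The means were 63.0 ± 8.32 FPKM on the high-fat diet and 36.2 ± 4.26 FPKM on the normal diet (SD, n = 4 each), and the log2 difference was 0.78 ± 0.15 (limma, standard error, adjusted p = 0.0120). This call also held in all 19 other settings, between 0.69 and 0.91. Endothelial cells are another known source of OX40 ligand. Fabp4 made up most of the difference in the endothelial sums given above, at 9.68 to 104 FPKM in high-fat and 0.788 to 1.81 FPKM in normal-diet libraries. Of the 8 endothelial markers 4, Cdh5, Kdr, Flt1 and Tek, stayed under 2 FPKM in every library. At these low levels Cdh5, Kdr and Tek were higher in every high-fat than in any normal-diet library, and Flt1 overlapped. The diets also overlapped in Pecam1, Emcn and Cldn5. Pecam1 was at 10.6 to 25.1 FPKM in high-fat and 11.3 to 16.1 FPKM in normal-diet libraries. Kdr was at 0.694 to 1.82 FPKM in high-fat and 0.0451 to 0.351 FPKM in normal-diet libraries. The part of endothelial cells in the Tnfsf4 values was not tested.

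Lta, Tnf and Ltb lie side by side within 10.9 kb of chromosome 17, and their values differed in direction. Lymphotoxin alpha is secreted as a homotrimer that binds the TNF receptors, or is held at the membrane in a complex with lymphotoxin beta. Lta (ENSMUSG00000024402, 35203165 to 35205351) was at 32.1, 29.1, 29.4 and 28.6 FPKM in H1 to H4, against 19.2, 21.0, 20.9 and 14.6 FPKM in N1 to N4. The diets did not overlap, and the log2 difference was 0.64 ± 0.15 (limma, standard error, adjusted p = 0.0324). That call was lost in each fit lacking H1, H3, H4, N1, N2 or N4 (0.0503 to 0.0965), with the log2 difference at 0.53 to 0.69 over all libraries left out in turn, and it was not made when no filter was set (0.0939).

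Tnf (35199381 to 35202007), the founding inflammatory ligand, was at 45.5, 27.8, 28.8 and 33.4 FPKM in H1 to H4, against 29.9, 22.3, 23.3 and 17.1 FPKM in N1 to N4. N1 lay above H2 and H3, and the difference of 0.53 did not pass (limma, adjusted p = 0.156). Ltb (35194439 to 35196320), the membrane anchor of lymphotoxin and by far the most abundant ligand, was at 531, 527, 396 and 451 FPKM on the high-fat diet, against 563, 661, 463 and 491 FPKM on the normal diet. These ranges overlapped (-0.19, limma, adjusted p = 0.577), and under quantile normalization the difference was 0.0045, above 0. Its receptor Ltbr, which stromal and myeloid cells carry, stayed at 0.213 to 0.869 FPKM and 0.133 to 1.10 FPKM on the high-fat and normal diets.

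The promoters of this locus and of Tnfrsf9 are shown because Lta and Tnfrsf9 were called in opposite directions and both are known NF-kB target genes. Each line gives the 250 bases before a transcription start (RefSeq, GRCm38.p6, 5′ to 3′ on the strand of the gene), and capitals mark matches on either strand to a loose form of the NF-kB site (GGG, any 5 bases, CC) or to the AP-1 site (TGA, any 1 base, TCA). Overlapping matches run together.
Lta, chr17:35205352-35205601, minus strand: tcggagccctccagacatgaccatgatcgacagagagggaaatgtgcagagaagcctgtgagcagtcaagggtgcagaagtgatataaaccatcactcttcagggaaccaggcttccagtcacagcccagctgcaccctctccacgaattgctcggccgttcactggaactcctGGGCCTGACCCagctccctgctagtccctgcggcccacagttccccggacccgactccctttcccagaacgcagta
Tnf, chr17:35202008-35202257, minus strand: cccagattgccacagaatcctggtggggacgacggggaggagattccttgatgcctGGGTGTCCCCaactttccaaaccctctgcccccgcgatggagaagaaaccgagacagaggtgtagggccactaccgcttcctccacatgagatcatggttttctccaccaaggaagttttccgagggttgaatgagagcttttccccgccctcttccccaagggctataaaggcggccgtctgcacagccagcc
Ltb, chr17:35194257-35194506, plus strand: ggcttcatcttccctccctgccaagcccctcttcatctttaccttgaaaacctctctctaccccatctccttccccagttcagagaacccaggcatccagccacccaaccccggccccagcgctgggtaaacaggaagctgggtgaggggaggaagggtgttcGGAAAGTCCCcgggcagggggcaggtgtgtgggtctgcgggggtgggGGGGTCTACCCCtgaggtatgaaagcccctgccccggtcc
Tnfrsf9, upstream start, chr4:150919905-150920154, plus strand: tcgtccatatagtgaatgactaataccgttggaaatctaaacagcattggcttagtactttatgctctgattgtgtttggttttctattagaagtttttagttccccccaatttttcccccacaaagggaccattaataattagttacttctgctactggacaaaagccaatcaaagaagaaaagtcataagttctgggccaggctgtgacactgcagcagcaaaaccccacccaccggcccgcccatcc
Tnfrsf9, downstream start, chr4:150927749-150927998, plus strand: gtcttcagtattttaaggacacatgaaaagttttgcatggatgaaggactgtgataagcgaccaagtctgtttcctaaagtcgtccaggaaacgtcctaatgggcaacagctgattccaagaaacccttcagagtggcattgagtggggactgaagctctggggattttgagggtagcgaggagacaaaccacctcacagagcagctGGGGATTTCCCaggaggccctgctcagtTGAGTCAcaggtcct
The NF-kB letters occurred in the windows of Lta, Tnf and Ltb and at the downstream start of Tnfrsf9, which also held the only AP-1 match of these 5 windows. RefSeq windows were found for 31 of the 40 members, Tnfsf9 and Tnfsf4 not among them. Of those 35 windows 21 held the NF-kB letters, as did 45.8% of 32851 windows of all genes, and 5 held the AP-1 letters, as did 6.75% of all windows. The letters of a GATA factor site, AGATAA, were in 1 of the 35 windows and in 9.99% of all windows. A match is a string of letters and not a site.

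Tnfsf9, Cd70 and Tnfsf14 form a second cluster on chromosome 17, spanning 88.9 kb. Cd70, the ligand of CD27, averaged 6.74 ± 1.65 FPKM in high-fat libraries and 4.46 ± 0.841 FPKM in normal-diet libraries (SD, n = 4 each, difference 0.49, limma, adjusted p = 0.174). Tnfsf14 (LIGHT), which binds HVEM and the lymphotoxin beta receptor, went the other way, at 47.3, 32.1, 33.0 and 33.2 FPKM in H1 to H4, against 46.6, 61.3, 45.9 and 44.5 FPKM in N1 to N4. H1 alone lay within the normal-diet range, and the difference of -0.44 did not pass (limma, adjusted p = 0.170). The neighbours in this cluster thus included the called ligand Tnfsf9 and a ligand whose difference was below 0.

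Tnfsf11 (RANKL), the osteoclast and lymph node inducer, was the second most abundant ligand by the mean of all 8 libraries, and Tnfsf9 exceeded it in H2, H3 and H4. It was at 181, 155, 157 and 165 FPKM in H1 to H4, against 138, 152, 108 and 104 FPKM in N1 to N4. The diets did not overlap, by a margin of a few FPKM between H2 and N2, and the difference of 0.40 did not pass (limma, adjusted p = 0.181). Under quantile normalization it was 0.55 and passed (0.0284). Tnfsf10 (TRAIL), a death ligand, was at 6.17, 4.32, 5.49 and 7.73 FPKM in H1 to H4, against 3.15, 2.92, 4.06 and 2.74 FPKM in N1 to N4. It too did not overlap, at a difference of 0.70 that missed the threshold (limma, adjusted p = 0.0583, and 0.0211 to 0.169 over the other settings, 5 of which called it, among them the fit without H2).

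Tnfsf8 (CD30 ligand) and Tnfsf15 (TL1A, the ligand of DR3) are neighbours within 134 kb of chromosome 4 and both varied widely on the normal diet, with SDs of 81.4% and 79.4% of their means. Tnfsf8 was at 76.7, 81.3, 82.6 and 103 FPKM in H1 to H4, against 16.1, 85.5, 33.4 and 21.3 FPKM in N1 to N4. Of the normal-diet libraries N2 alone lay within the high-fat range. The difference was 1.41 ± 0.47 (limma, standard error, adjusted p = 0.171), and without N2 it was 1.87 (0.00363). The count behind N2 was 2167 reads, recovered from the deposited values, against 389 to 748 reads in the other normal-diet libraries.

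Tnfsf15 was at 2.58, 4.04, 7.12 and 6.31 FPKM in H1 to H4, against 0.300, 3.09, 0.945 and 1.71 FPKM in N1 to N4. N2 was again the highest normal-diet library and lay above H1. The difference of 1.31 did not pass (limma, adjusted p = 0.0745), but did in 5 of the 19 other settings. These were the fits without H1 (0.0481), without N2 (0.0368) and without both H2 and N2 (0.0317). The others were the replicate block (0.0440) and the authors' recycled scaling factor, described below, divided out (0.0475). Reads recovered for Tnfsf15 ran from 123 to 288 in the high-fat and from 11 to 119 in the normal-diet libraries. Endothelial and myeloid cells are known sources of TL1A, and the part of such cells in these values was not tested.

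**Figure D3:**
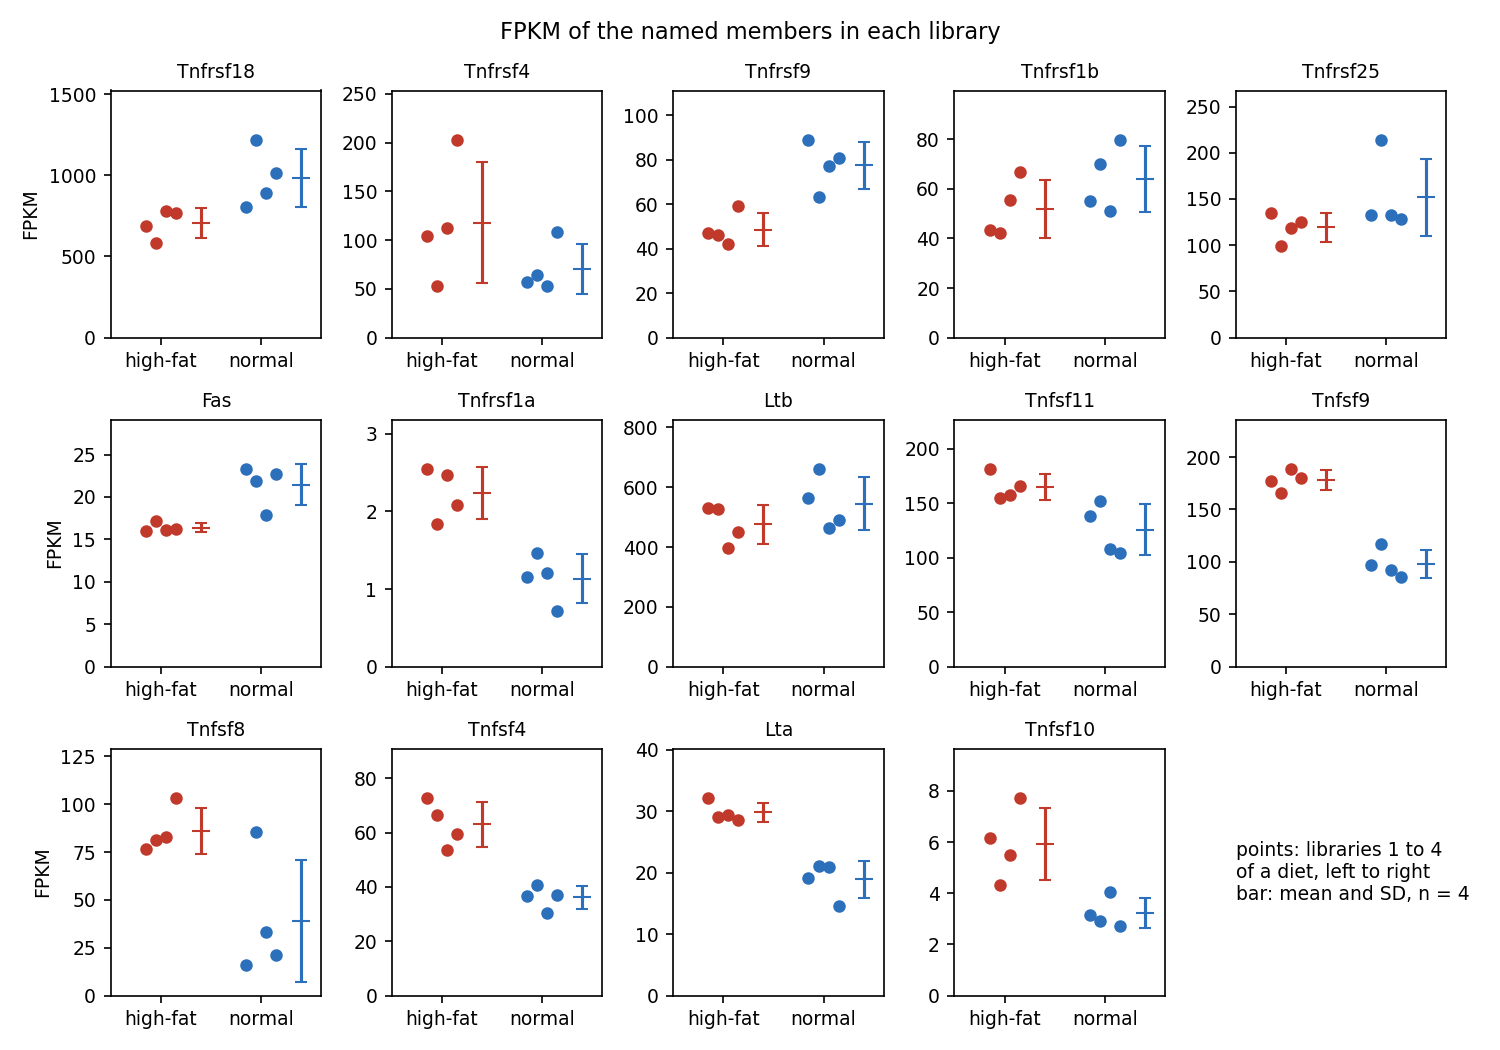
FPKM of 14 members in each library, high-fat diet left of normal diet in each panel, points in the order of libraries 1 to 4, with the mean and SD (n = 4) beside them. The diets do not overlap for Tnfsf9, Tnfsf4, Lta, Tnfsf11, Tnfsf10, Tnfrsf1a, Tnfrsf18, Tnfrsf9 and Fas, and for Tnfsf8 N2 alone lies among the high-fat libraries.

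Cd40lg (CD40 ligand), a hallmark of helper T cells, was at 6.11, 3.35, 17.4 and 9.91 FPKM in H1 to H4, against 4.11, 0.491, 3.41 and 4.45 FPKM in N1 to N4. H2 lay within the normal-diet range and the difference of 1.27 did not pass (limma, adjusted p = 0.290). Cd3e was at 10.7, 7.33, 13.6 and 15.1 FPKM in H1 to H4, against 3.62, 2.49, 2.89 and 11.6 FPKM in N1 to N4. Other genes of the T cell list differed in order. Among the normal-diet libraries Cd3d, Cd4, Cd5 and Cd6 were also lowest in N2. Cd3g, Lat and Trbc2 were instead highest in N2, at 128, 331 and 285 FPKM, and the remaining genes varied. The part of T cells in the Cd40lg values was not tested. N2 held 7 recovered reads of Cd40lg. Tnfsf18, the ligand of GITR, averaged 0.839 ± 0.234 FPKM in high-fat libraries and 0.859 ± 0.269 FPKM in normal-diet libraries (SD, n = 4 each), with 14 to 31 recovered reads per library. The ligands Fasl, Tnfsf13b (BAFF) and the read-through gene Tnfsfm13 stayed under the filter, Fasl with 8 to 18 recovered reads per library.

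Among the costimulatory receptors, Tnfrsf9 (ENSMUSG00000028965, chromosome 4, 150914562 to 150946102) was the only receptor called. CD137 is induced by activation in lymphocytes and mast cells. It stood at 47.2, 46.0, 42.0 and 59.3 FPKM in H1 to H4, against 89.0, 63.4, 77.1 and 80.6 FPKM in N1 to N4. The diets did not overlap, and the means were 48.7 ± 7.46 FPKM on the high-fat diet and 77.5 ± 10.7 FPKM on the normal diet (SD, n = 4 each). The log2 difference was -0.66 ± 0.16 (limma, standard error, adjusted p = 0.0337). The call was lost without H1, H3, N1, N3 or N4 (adjusted p of 0.0712 to 0.129) and under quantile normalization (0.0795), and the difference stayed between -0.76 and -0.52 over the 19 other settings.

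Tnfrsf18 (GITR), the most abundant member, neighbours Tnfrsf4 (OX40) within 15.1 kb of chromosome 4. It was at 690.3, 581, 781 and 771 FPKM in H1 to H4, against 806, 1218, 889.8 and 1013 FPKM in N1 to N4. Every high-fat library was below every normal-diet library, and the difference of -0.47 did not pass (limma, adjusted p = 0.137), although it did once the authors' recycled scaling factor was divided out (0.0305). Tnfrsf4 was at 105, 52.6, 112 and 203 FPKM in H1 to H4, against 57.1, 63.9, 52.5 and 108 FPKM in N1 to N4. The ranges overlapped (0.64, limma, adjusted p = 0.456). H4 and N4 were the highest of their diets in Tnfrsf4 and also in Foxp3, the regulatory T cell factor, at 16.8 and 11.5 FPKM, and in Cd4, at 18.5 and 15.9 FPKM. Other markers did not all follow this order. Ikzf2 of the regulatory T cell list was highest in H1, at 25.5 FPKM against 23.3 FPKM in H4. In the T cell list Trbc2 was highest in H1 and N2, at 468 and 285 FPKM, and the sum was highest in H1 and N4. The regulatory T cell list summed to 49.6 to 101 FPKM in high-fat and 23.7 to 58.6 FPKM in normal-diet libraries, and its part in the OX40 and GITR values was not tested.

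Tnfrsf1b (TNF receptor 2) was at 43.5, 42.0, 55.7 and 66.9 FPKM in H1 to H4, against 55.0, 69.8, 50.9 and 79.7 FPKM in N1 to N4. The diets overlapped (-0.29, limma, adjusted p = 0.439). Cd27, a costimulator of T and B cells, averaged 41.0 ± 8.59 FPKM on the high-fat diet and 49.1 ± 12.0 FPKM on the normal diet (SD, n = 4 each). Tnfrsf14 (HVEM) averaged 4.05 ± 1.43 and 3.88 ± 0.277 FPKM, and Cd40, a receptor of B cells and myeloid cells, 1.29 ± 0.760 and 1.12 ± 0.505 FPKM on the high-fat and normal diets. Tnfrsf8 (CD30), the receptor of the abundant Tnfsf8, stayed under the filter at 0.350 to 1.02 and 0.122 to 0.499 FPKM. Of the 7 tested costimulatory receptors 1 fell and 6 did not pass, where 1.88% of all tested genes were called lower.

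**Figure D4:**
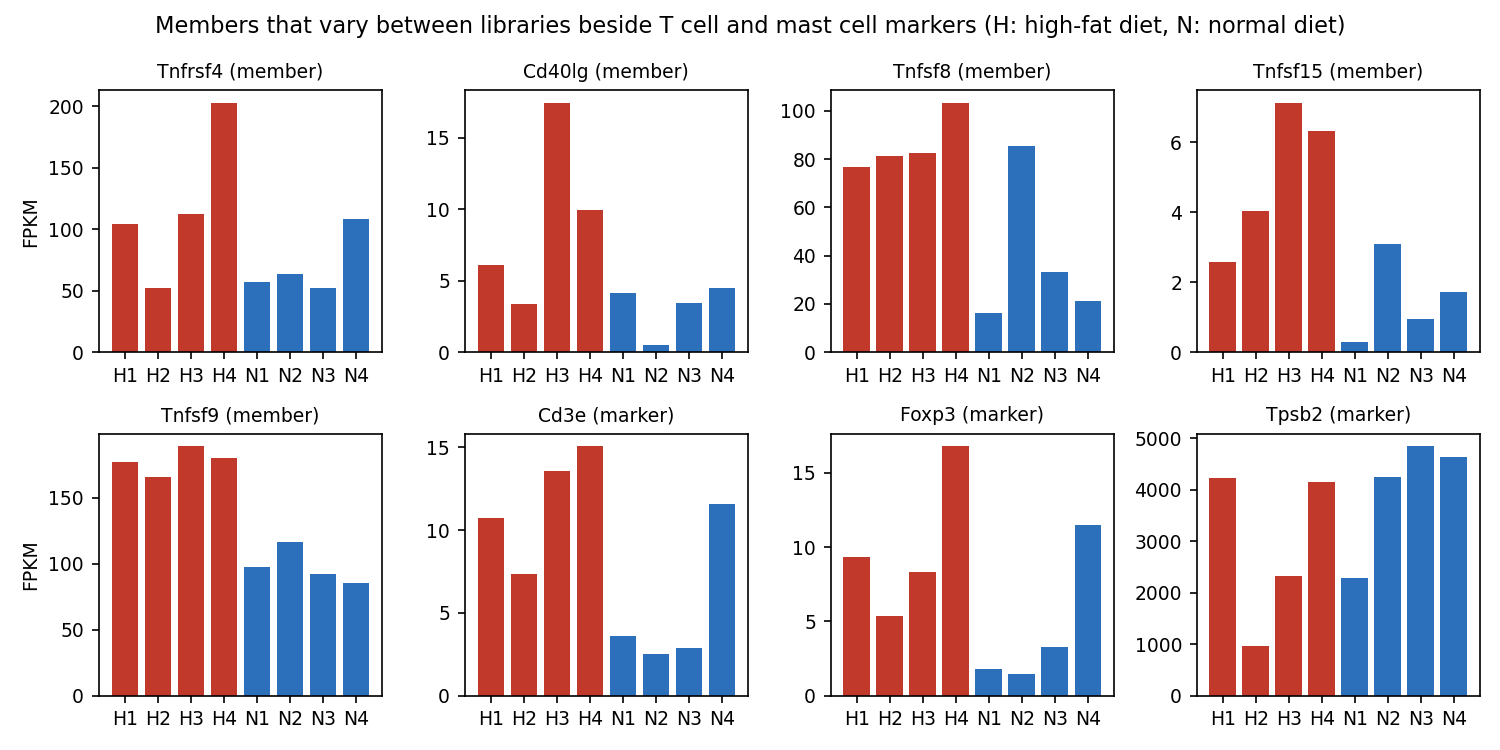
FPKM by library for 4 members that vary between libraries, for Tnfsf9, and for the markers Cd3e (T cell), Foxp3 (regulatory T cell) and Tpsb2 (mast cell), with H1 to H4 in red left of N1 to N4 in blue. H4 and N4 are high in Tnfrsf4, Cd3e and Foxp3, N2 is high in Tnfsf8 and Tnfsf15, and Tnfsf9 separates the diets.

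None of the 5 death domain receptors passed (limma, 2 at an unadjusted p under 0.05, a level that 18.1% of all tested genes reached). Tnfrsf25 (DR3), the most abundant of them, was at 135, 98.8, 118 and 126 FPKM in H1 to H4, against 132, 214, 132 and 129 FPKM in N1 to N4. The ranges overlapped, since H1 lay above N1, N3 and N4 (-0.32, limma, adjusted p = 0.373). Fas was at 16.0, 17.1, 16.1 and 16.3 FPKM in H1 to H4, against 23.3, 21.8, 17.9 and 22.7 FPKM in N1 to N4. The high-fat libraries lay close together and below all normal-diet libraries, at a difference of -0.36 (limma, adjusted p = 0.180).

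Tnfrsf1a (TNF receptor 1) was the only receptor higher without overlap, at 2.55, 1.84, 2.47 and 2.08 FPKM in H1 to H4, against 1.15, 1.46, 1.20 and 0.712 FPKM in N1 to N4. Its counts were small, at 12 to 45 recovered reads per library, and the difference of 0.61 did not pass (limma, adjusted p = 0.131). Tnfrsf1a is widely expressed in stromal, endothelial and myeloid cells. Macrophage markers summed to 7.84 to 10.2 FPKM in high-fat libraries and 4.33 to 8.05 FPKM in normal-diet libraries, and stromal markers to 5.08 to 32.6 and 2.37 to 8.45 FPKM, and their part in the Tnfrsf1a values was not tested. Tnfrsf21 (DR6) averaged 11.1 ± 2.31 FPKM in high-fat and 13.3 ± 3.39 FPKM in normal-diet libraries, and Tnfrsf10b, the TRAIL receptor, 10.3 ± 1.98 and 10.8 ± 1.97 FPKM (SD, n = 4 each).

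Of the receptors known from lymphoid organs, B cells and other tissues, 4 of 7 were tested and none passed. Nor did any of the 3 tested genes listed as decoy receptors (limma, 0 at an unadjusted p under 0.05 in either group). Tnfrsf12a, the TWEAK receptor, averaged 34.3 ± 3.06 FPKM on the high-fat diet and 36.0 ± 5.48 FPKM on the normal diet (SD, n = 4 each). Tnfrsf13b (TACI), known from B cells, averaged 6.40 ± 2.83 and 6.89 ± 2.08 FPKM. Tnfrsf17 (BCMA), a plasma cell receptor, was at 7.90 FPKM in H2 and at 1.01 to 2.76 FPKM in the other high-fat libraries, against 0.723 to 2.30 FPKM on the normal diet. H2 was also the library with the most genes at 1 FPKM or more, 13663 against 10763 to 11905 in the others. Tnfrsf11a (RANK), the receptor of the abundant Tnfsf11, averaged 2.20 ± 0.443 and 2.05 ± 0.399 FPKM. The mouse genes Tnfrsf22, Tnfrsf23 and Tnfrsf26, listed here with the decoy receptors, lie together within 78.2 kb of chromosome 7. Tnfrsf22, the highest, averaged 5.17 ± 0.505 and 4.74 ± 0.601 FPKM. Tnfrsf26 averaged 2.69 ± 0.738 and 2.63 ± 0.566 FPKM, and Tnfrsf23 1.47 ± 0.472 and 1.01 ± 0.327 FPKM. The soluble decoy of RANKL, Tnfrsf11b, was listed at 0 in all high-fat libraries and at up to 0.0811 FPKM in normal-diet libraries. The ranges of the diets overlapped for all of these genes.

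Ligand and receptor transcripts were then set against each other within each library, as the log2(FPKM + 1) of the ligand minus that of its receptor, a measure that the scaling of a library hardly touches at high levels. For CD137 ligand and CD137 this was 1.89, 1.83, 2.14 and 1.58 in H1 to H4, against 0.13, 0.87, 0.26 and 0.09 in N1 to N4. The ligand exceeded its receptor in every library, and by more in every high-fat library than in any normal-diet library. The means were 1.86 ± 0.23 on the high-fat diet and 0.33 ± 0.36 on the normal diet (SD, n = 4 each), which differ by 1.53. Since Tnfsf9 was higher and Tnfrsf9 lower without overlap, this separation followed from the values above and is no further result. The OX40 ligand and OX40 pair did not separate, at -1.75 to 0.33 in high-fat libraries and -1.52 to -0.62 in normal-diet libraries.

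Of 12 pairs with both genes tested, 3 were higher in every high-fat library, 1 was lower and 8 overlapped, a description that was not tested. Some pairs share a gene, and the share that other pairs of genes would give was not computed. TL1A against DR3 ran from -5.25 to -3.88 in high-fat libraries and from -6.68 to -5.58 in normal-diet libraries, and Lta against Tnfrsf1b from -1.196 to -0.42 and from -2.37 to -1.24. LIGHT against HVEM was lower, at 2.76 to 3.05 in high-fat libraries and 3.25 to 3.56 in normal-diet libraries. Far apart in every library were also Tnfsf18 against Tnfrsf18, from -8.97 to -8.16 in high-fat libraries and -9.25 to -8.84 in normal-diet libraries, and Tnfsf11 against Tnfrsf11a, from 5.55 to 5.91 and from 4.96 to 5.67. Thus the GITR transcript had almost no ligand transcript beside it. The RANK transcript was far below that of RANKL but present, with 93 to 186 recovered reads per library.

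**Figure D5:**
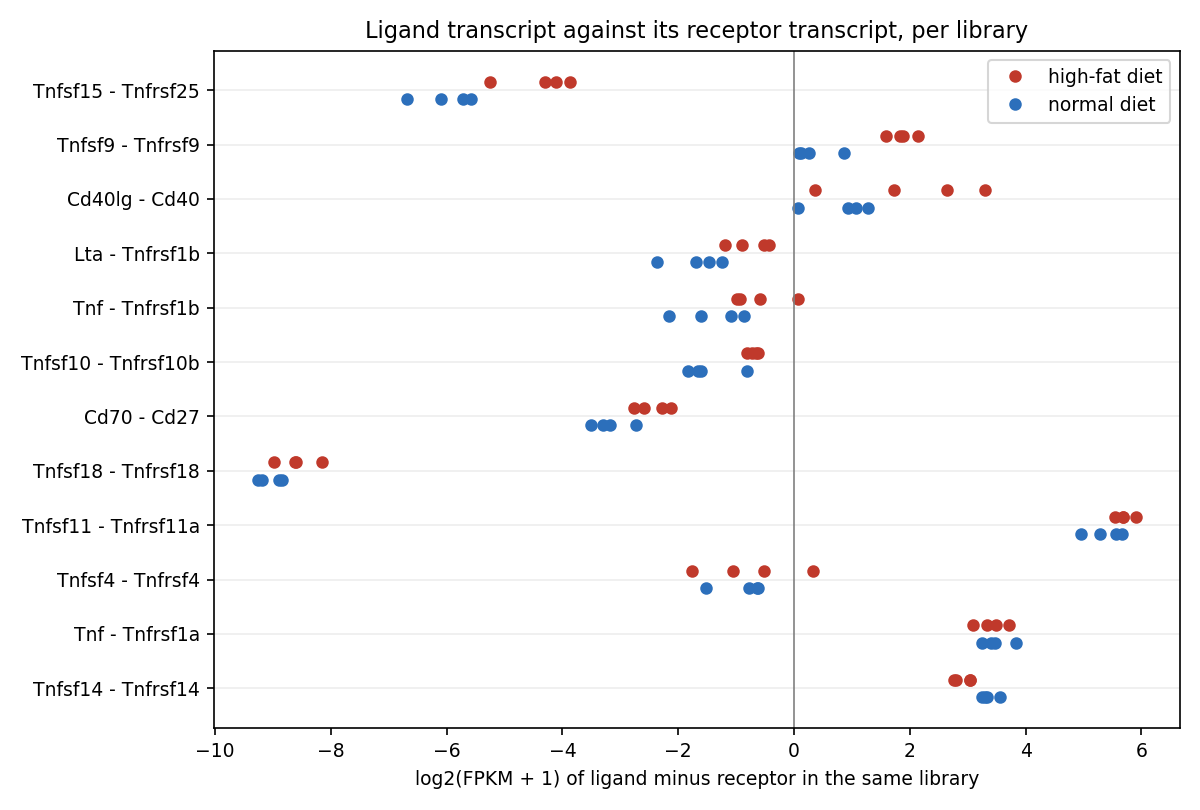
Ligand minus receptor in log2(FPKM + 1) within each library for the 12 pairs with both genes tested, with the 4 high-fat libraries in red above the 4 normal-diet libraries in blue. The pairs Tnfsf15 and Tnfrsf25, Tnfsf9 and Tnfrsf9, and Lta and Tnfrsf1b separate upward on the high-fat diet, Tnfsf14 and Tnfrsf14 downward, and the other 8 overlap.

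Genes that act downstream of these receptors were taken from lists. Of 20 adaptors and ubiquitin enzymes none passed (limma, 4 at an unadjusted p under 0.05, where 18.1% of all tested genes passed), and 16 had a difference below 0, as did 5982 of all 11483 tested genes. Traf1, an adaptor of several receptors described above, was at 577 ± 42.7 FPKM on the high-fat diet and 615 ± 57.0 FPKM on the normal diet, and Tnfaip3 (A20), the ubiquitin-editing inhibitor, at 2450 ± 490.0 and 2878 ± 400 FPKM (SD, n = 4 each). Of 11 genes of death signalling none passed (limma, 0 at an unadjusted p under 0.05), with Casp8 at 88.3 ± 11.9 and 82.6 ± 10.9 FPKM and Ripk3 at 45.0 ± 7.97 and 48.5 ± 7.69 FPKM on the high-fat and normal diets. Nor did any of 15 kinases upstream of NF-kB and JNK (limma, 1 at an unadjusted p under 0.05), with Map3k14, the NF-kB inducing kinase of OX40 and CD40 signalling, at 34.3 ± 4.04 and 45.7 ± 8.68 FPKM and Ikbkb at 77.3 ± 4.57 and 93.1 ± 14.0 FPKM.

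In the list of NF-kB subunits and inhibitors 3 of 11 fell and 8 did not pass, with Nfkb2 at 144 ± 6.93 and 243 ± 39.5 FPKM on the high-fat and normal diets, Relb at 74.4 ± 10.7 and 119 ± 14.7 FPKM and Nfkb1 at 199 ± 4.80 and 313 ± 53.0 FPKM (limma, adjusted p = 0.0151, 0.0290 and 0.0297). At an unadjusted p under 0.05 (limma), 8 of the 11 passed, 1 of them higher, where 18.1% of all tested genes passed. The higher one, Nfkbid, was at 1188 ± 170 and 853 ± 48.4 FPKM on the high-fat and normal diets, without overlap (limma, adjusted p = 0.0976). The calls of Relb and Nfkb1 were lost under quantile normalization and in 6 of the 8 fits without a library, all but those lacking H2 or N3 (adjusted p up to 0.104), and that of Nfkb2 without H3 or H4 (up to 0.0561). Of 9 genes that shed or process these proteins 1 fell, the convertase Furin, which cleaves several ligands of the family, at 408 ± 17.8 and 691 ± 95.6 FPKM (limma, adjusted p = 0.0119, and 0.0512 without H3). Of these 9 genes 3 were at an unadjusted p under 0.05 (limma), 1 of them higher. These lists are to be read beside the 1.88% of tested genes called lower.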

How the data were processed

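Per the labels' protocols, RNA was extracted with Trizol, reverse transcribed with a full-length SMART-Seq HT kit and tagged by a transposase. Such libraries do not mark the strand. HISAT2, Cufflinks and mm10 are named in the submitters' processing notes, without version, role or annotation.

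The authors deposited FPKM values, per the file headers, for 8 libraries and 39527 genes. Genes with values below 0, as if divided by a negative length, are not FPKM and were left out, which left 24922. Within a library the worth of 1 read also takes 10 sizes (0.863 to 1.18 of their mean) that recycle down the genes in identifier order, found from the 66566 values below 0, 100% of which are then whole reads (tolerance 0.01). This shifts a log2 difference by -0.08 to 0.09. It was kept in the values and divided out in an alternative. The deposited values had been scaled to 9214408 to 13595913 reads per library. For members, reads were recovered as the smallest gene length, in steps of 0.5 bases, at which all libraries hold whole reads (a shared divisor makes them too low). Counts set the precision of low members, and no count model was used.

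The 11483 genes that reached 1 FPKM in 4 or more libraries were fitted as log2(FPKM + 1) with limma 3.58.1 in R 4.3.3, diet as the only term, eBayes with trend and robust options, with two-sided p-values, Benjamini-Hochberg adjusted and called at 0.05. Fold changes on this scale understate low genes. The fit was checked on simulated data. Members and gene lists were chosen with earlier results of these data known. Values per library are given for members called, without overlap between the diets, or among the 5 most abundant ligands or receptors, and pathway genes are those called or else the most abundant of a list. Library values of Tnf, Tnfsf14, Tnfsf15 and Cd40lg were added after their values were seen. Gene coordinates are from GENCODE M21 (mm10) and promoters from RefSeq. Alternatives changed the pseudocount, filter, scaling, moderation, gene set, block and libraries.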

Additional observations from a re-analysis of the deposited data

Results flagged for a closer look

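In groups of 4 libraries, 64 in all for the 32 tested members, 4 held a library whose gap to the nearest other one was over Dixon's 95% critical share of the group's range on the log2(FPKM + 1) scale. Chance flags about 1 group in 20, so this number is near what chance gives. N2 stood apart in 3 of them: Tnfrsf25 was at 214 FPKM there and at 129 to 132 FPKM in the other normal-diet libraries, Tnfsf14 at 61.3 against 44.5 to 46.6 FPKM, and Cd40lg at 0.491 against 3.41 to 4.45 FPKM. On the high-fat diet H1 stood apart for Tnfsf14, at 47.3 against 32.1 to 33.2 FPKM.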

How the results depend on the processing

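Among 19 other settings the calls of Tnfsf9 and Tnfsf4 held in all, and those of Tnfrsf9 and Lta in 10 each. Genes called over all tested genes numbered 328, against 130 with no filter on low values, 571 with the recycled factor divided out and 129 to 536 without a library in turn. Members called higher numbered 3, against 5 with the factor divided out, 6 without both H2 and N2 and 2 to 4 without a library in turn. Members called lower numbered 1, against 0 with no filter, under quantile normalization or with eBayes lacking trend and robust options, 2 with the factor divided out and 0 to 1 without a library in turn.

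Replicate numbers are shared between the diets. The deviations of same-numbered libraries correlated at -0.25 to 0.08, and those of differently numbered libraries at -0.20 to 0.22. With 4 libraries per diet these values show no sign of pairing but cannot exclude it. With the replicate block 191 genes, 4 members higher and 0 members lower were called. The 4 were Tnfsf9, Tnfsf4, Tnfsf15 (adjusted p = 0.0440, limma) and Cd40lg (0.0349), while Lta (0.0875) and Tnfrsf9 (0.0856) were not called. No scaling moved the median of all genes by over 0.1.

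Differences near 0 changed sign. Under quantile normalization Tnfrsf14 stood at -0.0476, Cd40 at -0.0377, Tnfrsf26 at -0.0894, Ltb at 0.0045, Tnfrsf12a at 0.029 and Tnfrsf11a at -0.0315. With the factor divided out Tnfrsf26 was at -0.05. Without both H2 and N2, Cd27 was at 0.0279, Cd40 at -0.29, Tnfrsf10b at 0.0418, Tnfrsf26 at -0.11 and Tnfrsf13b at 0.13. Without a library in turn Tnfrsf14 ran from -0.17 to 0.10, Cd40 from -0.11 to 0.21, Tnfrsf10b from -0.20 to 0.0153, Tnfrsf26 from -0.0808 to 0.16, Tnfsf18 from -0.10 to 0.0705, Tnfrsf12a from -0.12 to 0.0344 and Tnfrsf13b from -0.32 to 0.0309. The cause was not tested. Few reads limit, among others, Tnfrsf1a, Tnfsf18, Cd40, Tnfrsf17, Tnfrsf23 (18 to 39 per library), Tnfrsf14 (23 to 63) and the members under the filter. Cd40lg and Tnfsf15 fell to 7 and 11 reads in their lowest libraries.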
